A study of Mus musculus with 11 samples.

Results

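The serine-threonine protein phosphatase subunits were taken as all probe sets annotated to a single gene whose symbol begins with Ppp1, Ppp2, Ppp3, Ppp4, Ppp5, Ppp6 or Ppm1, with 1 calcineurin gene left out. They made up 41 of the 12488 probe sets on the array and covered 34 of its 8252 singly annotated genes, 6 of them through several probe sets. Each of 11 mice gave 1 array of whole brain RNA. The mice were untreated, of strain C57BL/6J and between 6 and 9 weeks old. The 5 null mice (2 male, 3 female) lacked β4, a subunit of nicotinic receptors, which are ion channels opened by acetylcholine, and the 6 wild-type mice (4 male, 2 female) were their littermates. The null mice were 7 to 9 weeks old, both null males 9. Of the wild-type mice 3 were 6 weeks old and the others 7 to 9, so age is not even over the genotypes. A whole brain holds every brain region and cell type at once, so fewer cells of a type and less RNA per cell cannot be told apart. The labels do not say how the null allele was made, and no probe set used here is named for the deleted gene, so the genotype labels could not be checked by its signal.

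These enzymes remove phosphate from serine and threonine and so undo the work of protein kinases. In the PPP family a handful of catalytic subunits (PP1, PP2A, calcineurin, PP4, PP5, PP6) are directed to their substrates by a much larger set of scaffolds, targeting subunits and inhibitors, whereas the metal-dependent PPM enzymes mostly act without such partners. In neurons PP1 and calcineurin act at synapses in opposition to protein kinase A and the calcium-calmodulin kinases. Calcineurin itself is switched on by calcium and calmodulin, and PP2A is a major phosphatase of microtubule-associated proteins.

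The 250 bases before the annotated start of 4 subunit genes are shown because these genes had higher signals together in the wild-type brains with LT animal numbers, as described further on, and because they come from 3 different phosphatases. They are Ppp2ca (PP2A catalytic), Ppp1cc (PP1 catalytic), Ppp3r1 (calcineurin regulatory) and Ppp3cb (calcineurin catalytic). The sequences are from RefSeq on build GRCm38.p6, written 5′ to 3′ along the gene, and capitals mark matches on either strand to the GC box GGGCGG, the CRE TGACGTCA, the CCAAT box CCAAT or the TATA box TATAAA.
Ppp2ca (chr11:52098574-52098823, plus strand): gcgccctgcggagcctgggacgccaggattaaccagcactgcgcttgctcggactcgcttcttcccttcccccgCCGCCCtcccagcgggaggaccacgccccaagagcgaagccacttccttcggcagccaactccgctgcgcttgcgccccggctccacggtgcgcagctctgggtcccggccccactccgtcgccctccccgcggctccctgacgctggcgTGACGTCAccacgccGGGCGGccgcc
Ppp1cc (chr5:122158025-122158274, plus strand): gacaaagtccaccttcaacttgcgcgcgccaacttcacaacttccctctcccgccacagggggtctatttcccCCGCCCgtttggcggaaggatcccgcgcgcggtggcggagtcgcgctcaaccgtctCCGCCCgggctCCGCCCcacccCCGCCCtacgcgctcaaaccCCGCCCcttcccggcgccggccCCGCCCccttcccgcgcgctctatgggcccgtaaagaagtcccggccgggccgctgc
Ppp3r1 (chr11:17159048-17159297, plus strand): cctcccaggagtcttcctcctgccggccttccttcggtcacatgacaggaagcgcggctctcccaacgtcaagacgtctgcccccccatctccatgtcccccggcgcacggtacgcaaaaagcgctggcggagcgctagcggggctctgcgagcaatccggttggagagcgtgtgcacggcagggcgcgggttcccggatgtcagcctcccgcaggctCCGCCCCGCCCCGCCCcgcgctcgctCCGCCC
Ppp3cb (chr14:20546574-20546823, minus strand): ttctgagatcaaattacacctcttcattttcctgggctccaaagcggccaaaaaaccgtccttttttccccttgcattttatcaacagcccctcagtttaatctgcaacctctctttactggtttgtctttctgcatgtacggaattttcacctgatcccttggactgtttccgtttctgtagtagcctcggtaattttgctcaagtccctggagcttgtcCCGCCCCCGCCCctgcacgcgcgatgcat
The GC content of these windows was 73.6% for Ppp2ca, 72.0% for Ppp1cc, 70.8% for Ppp3r1 and 48.4% for Ppp3cb. The GC box matched 2, 6, 4 and 2 times in that order, and 3 of the matches in Ppp3r1 overlap. Of the 34 genes, 27 had an entry in the promoter table, with 36 windows in all. The GC box was in 28 of these 36 windows (77.8%), against 42.6% of the 21262 windows of protein-coding genes and 32.7% of all windows. The CRE was in 4 of 36 (11.1%), those of Ppm1a, Ppp1r12c, Ppp1r15a and Ppp2ca, against 1.92% of protein-coding windows. CCAAT was in 33.3% against 35.4%, and TATAAA in 5.56% against 11.6%. These are matches of letters and say nothing of binding.

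The arrays had been scaled by the authors to one trimmed mean signal of 150.1. Median signals lay between 43.6 and 49.75 on 9 arrays, and those of both null males were higher, at 58.3 and 56.3. The 3′ to 5′ ratio of the Gapdh control probe sets lay between 3.57 and 5.92 in wild-type brains, between 2.19 and 3.58 in null females and at 0.859 and 0.798 in null males. These 2 arrays stood apart from the rest, so the genotype differences of the members are given with and without them. Without them all null brains are female. With sex as covariate, that difference compares 3 null with 2 wild-type females. The wild-type males then add only to the estimate of spread. Marker genes of 10 cell type and region lists were set beside the tissue label. Of 12 neuronal markers 11 were measured and all 11 lay above the signal filter, as did all measured astrocyte (8), cerebellar (8) and endothelial (7) markers. In the other lists 7 of 8 oligodendrocyte, 8 of 10 microglial, 4 of 7 mural cell and 3 of 4 choroid plexus markers lay above it. So did 2 of 3 red blood cell and 4 of 5 striatal markers. The neuronal markers summed to 10517 to 13213 in wild-type brains, 12737 to 13634 in null females and 16067 to 16270 in null males. In the same order, 10 microglial markers summed to 1809 to 2217, 1701 to 1967 and 2217 to 2590, and 7 mural cell markers to 228 to 303, 263 to 283 and 337 to 354. The null males were lowest for the sums of 8 cerebellar markers (6350 to 7874, 6921 to 7782 and 5678 to 5903), 4 choroid plexus markers (999 to 1774, 1194 to 1425 and 685 to 931) and 3 red blood cell markers (2365 to 6091, 3716 to 5744 and 2188 to 2206). Some sums rest largely on 1 bright gene. Over all brains Hba-a1 of red blood cells ran from 2116 to 6027 and Ttr of choroid plexus from 552 to 1616. Snap25, at 4720 to 7460, was the brightest neuronal marker. Sums of astrocyte, oligodendrocyte, endothelial and striatal markers overlapped between the null males and the other brains. The part of these cell types in the results below was not tested.

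Of the 41 probe sets, 36 from 32 genes passed the signal filter (a mean log2 signal of at least 4.69, the 40th percentile, which is a signal of 25.8) and were tested with limma among 7453 probe sets. Below it lay both probe sets of Ppp1r12c, a myosin phosphatase targeting subunit, 1 probe set each of Ppm1b and Ppm1m, and Ppp1r3c, which targets PP1 to glycogen. One Ppp1r12c probe set was at or under the floor of 3.1 on 8 of 11 arrays. Signals of Ppp1r3c lay between 3.0 and 33.7 in 9 brains and at 63.5 and 85.3 in the null males; it was not tested. Among the 6 wild-type brains the SD of log2 signal had a median of 0.33 over the 36 tested probe sets, against 0.28 over all 7453.

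The first question was whether subunits differ between null and wild-type brains. None of the 36 passed for genotype (limma, sex as covariate, adjusted p under 0.05; 0.0268% of all tested probe sets passed), and in none did the 5 null brains all lie above (0.59% of all) or all below (0.496%) the wild-type brains. Nor did the 3 null females alone all lie above (1.09% of all) or below (0.832%) them. At an unadjusted p under 0.05 there were 14 (23.1% of all), of which 8 were higher in null brains against a background of 13.4%, and 6 lower against 9.69%. That split depends on scaling: it was 7 higher and 8 lower after quantile normalization, and 5 higher and 8 lower after centring each array on its median. Without the 2 male null brains there were 0 of 36, against 3.54% of all probe sets, and 0 passed after adjustment (0% of all). The median log2 difference over the 36 was 0.07 with all brains and -0.07 without the male null brains, beside 0.03 and 0.02 over all tested probe sets. Leaving those brains out compares 3 null with 2 wild-type females, not with all 6 wild-type brains. In that comparison each of the 14 differences became smaller or changed sign, and over all 36 the sign turned for 14.

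**Figure D1:**
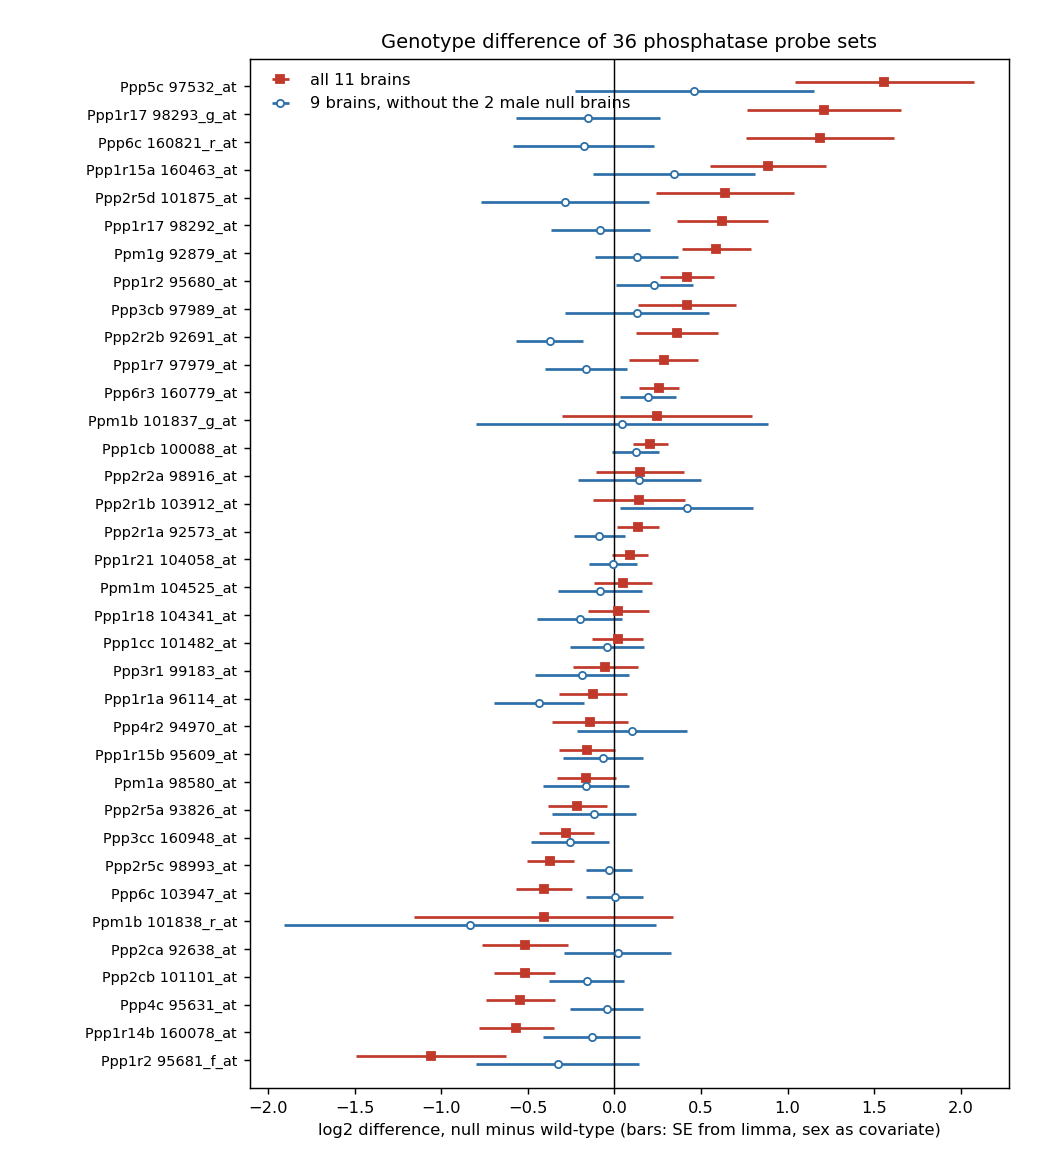
Log2 difference between null and wild-type brains (x axis, with SE bars from limma) for each of the 36 tested probe sets, ordered by the value in all 11 brains (filled squares) and with the value in 9 brains without the male null brains beside it (open circles). The squares run from -1.06 to 1.56 and the circles from -0.84 to 0.46. With sex as covariate, the circles compare 3 null with 2 wild-type females.

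The catalytic subunits of PP1 differed little. Ppp1cb (100088_at), the β form, had signals of 527.2 to 610.4 with a median of 574.2 in the 6 wild-type brains. It had 735.7 and 694.9 in the male null and 568.0, 550.0 and 644.5 in the female null brains. Both male null brains lay above all others, while the female null brains overlapped the wild-type range. The log2 difference was 0.21 (SE 0.10, adjusted p = 0.235 by limma), and 0.12 (SE 0.13) without the male null brains. Ppp1cc (101482_at), the γ form, ranged from 542.7 to 888.6 with a median of 716.15 in wild-type brains. Its null signals were 739.8, 741.3, 674.4, 652.0 and 718.7, all within that range, with a log2 difference of 0.02 (SE 0.15, adjusted p = 0.952 by limma), and of -0.04 (SE 0.21) without the male null brains. No probe set of the α form entered this description.

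Both catalytic subunits of PP2A were lower in the male null brains. Ppp2cb (101101_at), the β form, had wild-type signals of 1090 to 1897 with a median of 1333. The male null brains had 848.9 and 822.7 and the female null brains 1286, 1013 and 1258. The male null brains thus lay under the other 9, and only 1 female null brain lay under the wild-type range. The log2 difference was -0.52 (SE 0.18, adjusted p = 0.125 by limma) over all brains and -0.16 (SE 0.22) without the male null brains. Ppp2ca (92638_at), the α form, had wild-type signals of 214.9 to 514.5 with a median of 294.9. Its null signals were 181.8 and 152.1 in males and 249.6, 253.1 and 297.5 in females. Here too both male null brains were below all others, with a difference of -0.52 (SE 0.25, adjusted p = 0.234 by limma) that became 0.02 (SE 0.31) without them.

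Among the smaller PPP enzymes Ppp5c, the phosphatase that works with the Hsp90 chaperone, had the smallest genotype p of all 36. Its probe set 97532_at had dim wild-type signals of 8.2 to 42.4 with a median of 28.25. The null males had 150.1 and 111.1, and the null females 50.3, 51.6 and 22.2. The log2 difference was 1.56 (SE 0.52, adjusted p = 0.123 by limma), or 2.95-fold, and 0.46 (SE 0.69) without the male null brains. Its mean log2 signal was 4.58 in wild-type and 5.97 in null brains, so it passed the filter of 4.69 only through the null brains, and its rank and fold are to be read with that selection. Ppp4c (95631_at), the catalytic subunit of PP4, had wild-type signals of 200.8 to 370.1 with a median of 290.8. The male null brains had 139.7 and 176.6, below all others, and the female null brains had 282.7, 218.5 and 211.6, within the wild-type range. Its difference was -0.54 (SE 0.20, adjusted p = 0.14 by limma), and -0.04 (SE 0.21) without the male null brains.

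The calcineurin catalytic subunits overlapped between the genotypes. Ppp3cb (97989_at) ranged from 93.3 to 275.3 with a median of 186.85 in wild-type brains, and its null signals were 262.4, 329.4, 135.1, 162.9 and 256.1. Only 1 male null brain lay above the wild-type range, and the log2 difference was 0.42 (SE 0.28, adjusted p = 0.383 by limma), or 0.13 (SE 0.41) without the male null brains. Ppp3cc (160948_at), a form best known from testis, ranged from 70.9 to 89.3 with a median of 78.1, and its null signals were 65.8, 58.5, 58.0, 71.7 and 83.4. Of these 5 null brains 3 lay below the wild-type range, 1 of them female. Its difference was -0.28 (SE 0.16, adjusted p = 0.295 by limma) with all brains and -0.26 (SE 0.23) without the male null brains.

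Of the PPM enzymes, Ppm1g (92879_at), a nuclear phosphatase linked to splicing factors, was higher in the male null brains. Wild-type signals were 71.3 to 117.0 with a median of 93.9. Null signals were 171.9 and 200 in males and 96.0, 96.9 and 106.8 in females. All 3 females fell within the wild-type range. The log2 difference was 0.59 (SE 0.20, adjusted p = 0.124 by limma), and 0.13 (SE 0.24) without the male null brains. Ppm1a (98580_at), which acts on stress-activated kinases, had a difference of -0.16 (SE 0.17), and Ppm1m (104525_at) 0.05 (SE 0.17). Without the male null brains these were -0.17 (SE 0.25) and -0.08 (SE 0.24). The dimmer Ppm1m probe set 161992_at ran from 2.0 to 14.0 over all arrays and was not tested. Ppm1b was the most spread of the PPM members: its probe set 101837_g_at ran from 92.3 to 1282 within the wild-type group alone, and 101838_r_at from 5.4 to 169.0. Their genotype differences were 0.24 (SE 0.55) and -0.41 (SE 0.75), and 0.04 (SE 0.84) and -0.84 (SE 1.07) without the male null brains. The third, 101836_at, ran from 9.3 to 25.0 and was below the filter.

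**Figure D2:**
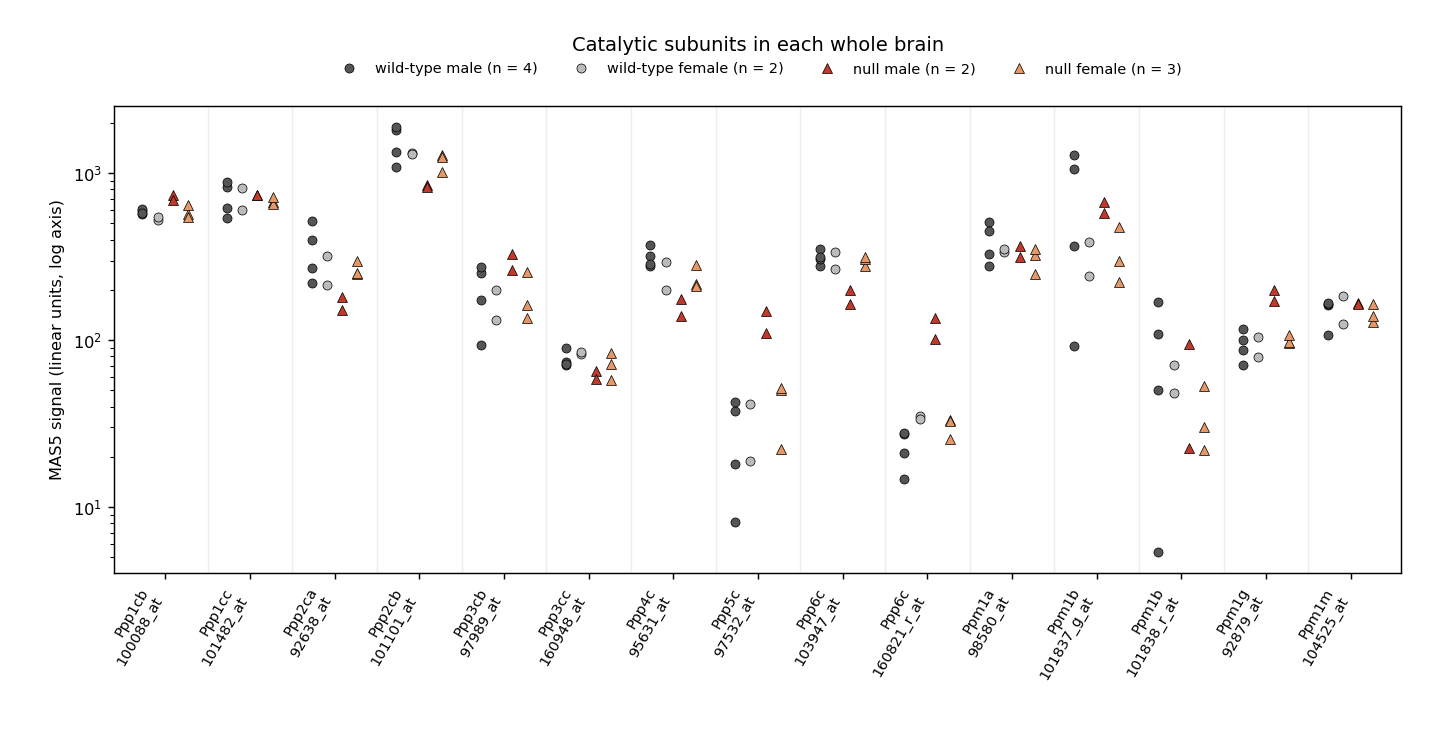
Signal on each array (y axis, linear MAS5 units on a log axis) for the tested probe sets of the catalytic subunits, with circles for wild-type and triangles for null brains, split by sex. The male null brains, at 150.1 and 111.1 for Ppp5c and 101.7 and 136.2 for the Ppp6c probe set 160821_r_at, lie above the other 9 brains, and for Ppp2ca, Ppp2cb, Ppp4c and the Ppp6c probe set 103947_at they lie below them.

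Among the inhibitors of PP1 the members did not move as a group: of 6 tested probe sets, 3 had an unadjusted genotype p under 0.05 with a higher signal in null brains (13.4% of all tested probe sets) and 2 with a lower one (9.69%). Ppp1r17, known as G-substrate and best known from cerebellar Purkinje cells, had signals of 162.0 and 155.3 in the male null brains through 98292_at, against 53.0 to 91.0 in the other 9. Through 98293_g_at it had 191.7 and 278.4 against 21.1 to 79.4. The probe sets thus gave the same direction, with log2 differences of 0.62 (SE 0.26, adjusted p = 0.182 by limma) and 1.21 (SE 0.45, adjusted p = 0.146 by limma). Without the male null brains they were -0.08 (SE 0.29) and -0.15 (SE 0.42). Ppp1r14b (160078_at), an inhibitor switched on by protein kinase C, ran from 219.2 to 459.9 in 9 brains and stood at 174.3 and 163.9 in both null males. Its difference was -0.57 (SE 0.22, adjusted p = 0.157 by limma), and -0.13 (SE 0.28) without the male null brains. Ppp1r1a (96114_at), inhibitor 1, a target of protein kinase A, overlapped between the genotypes (-0.12, SE 0.20, and -0.44, SE 0.26, without the male null brains).

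Ppp1r2, inhibitor 2, was measured by 2 probe sets that went opposite ways. In 95680_at the male null brains had 127.2 and 113.3, above the 52.6 to 86.9 of the other 9 brains. In 95681_f_at they had 7.5 and 26.7 against 21.3 to 79.8. The log2 differences were 0.42 (SE 0.16, adjusted p = 0.147 by limma) and -1.06 (SE 0.43, adjusted p = 0.174 by limma), so Ppp1r2 has no single direction here. Without the male null brains they were 0.23 (SE 0.22) and -0.33 (SE 0.47). The mean log2 signal of 95681_f_at was 5.49 in wild-type and 4.56 in null brains, so it passed the filter only through the wild-type brains. The suffix f marks a probe set whose probes can also bind related sequences, and the gene table lists several Ppp1r2 pseudogenes.

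Ppp6c, the catalytic subunit of PP6, showed the same split. Its probe set 103947_at had wild-type signals of 267.4 to 350.1 with a median of 310.15. The null signals were 164.6 and 200.6 in males and 279.5, 307.5 and 315.1 in females, so the males lay below all others. Its probe set 160821_r_at had wild-type signals of 14.7 to 35.2 with a median of 27.65. There the null signals were 101.7 and 136.2 in males and 25.5, 33.3 and 32.9 in females, so the males lay above all others. The log2 differences were -0.41 (SE 0.16, adjusted p = 0.165 by limma) and 1.19 (SE 0.43, adjusted p = 0.139 by limma), and without the male null brains 0.0029 (SE 0.16) and -0.18 (SE 0.41). The mean log2 signal of 160821_r_at was 4.68 in wild-type and 5.71 in null brains, so it too passed the filter only through 1 genotype, the null. The suffix r marks a probe set for which some of the usual rules of probe design were relaxed.

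**Figure D3:**
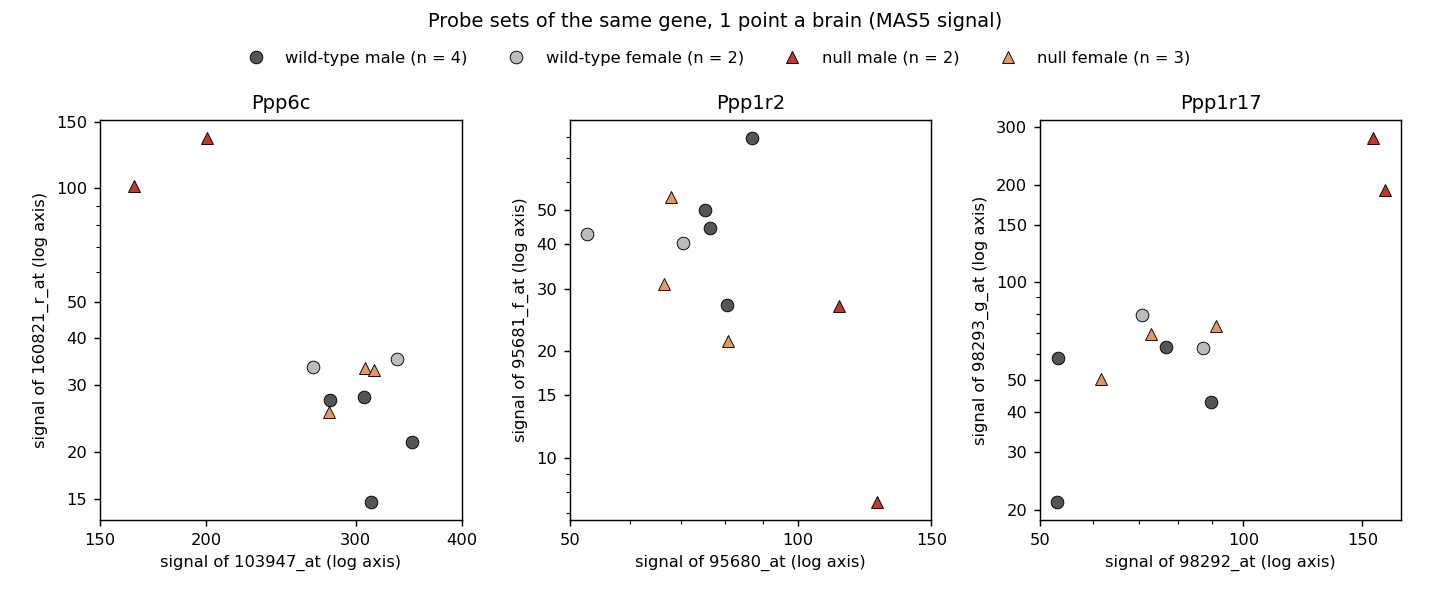
Signals of both probe sets of Ppp6c, Ppp1r2 and Ppp1r17 against each other, 1 point a brain, both axes in MAS5 units on log axes. The male null brains (red triangles) lie toward the upper left for Ppp6c, the lower right for Ppp1r2 and the upper right for Ppp1r17, apart from the other 9 brains.

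Of the subunits that direct PP1, Ppp1r15a, the stress-induced subunit that brings PP1 to the initiation factor eIF2α, had wild-type signals of 18.8 to 70.7 with a median of 52.25 (160463_at). The null signals were 105.3, 88.3, 90.7, 81.6 and 63.9, and 4 of these 5 lay above the whole wild-type range. The log2 difference was 0.89 (SE 0.33, adjusted p = 0.15 by limma), and 0.34 (SE 0.47) without the male null brains. The latter compares null females at 90.7, 81.6 and 63.9 with wild-type females at 53.9 and 69.9. Null females at 90.7 and 81.6 still lay above the whole wild-type range. Its constitutive counterpart Ppp1r15b (95609_at) had -0.16 (SE 0.16), and -0.07 (SE 0.23) without the male null brains. Ppp1r7 (97979_at), a leucine-rich repeat subunit of nuclear PP1, ran from 97.8 to 184.6 in 9 brains and stood at 191.3 and 230.1 in both null males, with a difference of 0.28 (SE 0.20, adjusted p = 0.399 by limma) that turned to -0.16 (SE 0.24) without them. Ppp1r18 (104341_at), which binds actin, had 0.02 (SE 0.17), and Ppp1r21 (104058_at) 0.09 (SE 0.10), against -0.20 (SE 0.24) and -0.0072 (SE 0.14) without the male null brains.

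The scaffolds and regulatory subunits of PP2A went different ways. Ppp2r1a (92573_at), the α scaffold, ran from 1450 to 1970 in 9 brains and stood at 1992 and 1972 in both null males (0.14, SE 0.12, and -0.09, SE 0.15, without them), so the gap between them was small. Ppp2r1b (103912_at), the β scaffold, had 0.14 (SE 0.26), and 0.42 (SE 0.39) without the male null brains. Ppp2r2b (92691_at), a B-type subunit enriched in neurons, ran from 346.4 to 624.1 in 9 brains and stood at 694.8 and 925.5 in both null males. Its log2 difference was 0.36 (SE 0.24, adjusted p = 0.367 by limma) with all brains and -0.38 (SE 0.19) without the male null brains. The latter compares null females at 413.3, 496.3 and 359.0 with wild-type females at 473.5 and 624.1. All these null females lay within the range of all wild-type brains. Ppp2r5c (98993_at), of the B56 type, had wild-type signals of 1222 to 1476 with a median of 1373.5. Its null signals were 820.3 and 913.6 in males and 1168, 1288 and 1350 in females, with a difference of -0.37 (SE 0.13, adjusted p = 0.14 by limma) that was -0.03 (SE 0.13) without the male null brains. Other regulatory subunits of PP2A had 0.64 (SE 0.40) for Ppp2r5d, 0.15 (SE 0.25) for Ppp2r2a and -0.21 (SE 0.17) for Ppp2r5a. Without the male null brains Ppp2r5d turned to -0.28 (SE 0.49), and the others were 0.14 (SE 0.36) and -0.12 (SE 0.24).

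Ppp3r1 (99183_at), the calcium-binding subunit of calcineurin, ranged from 1600 to 3269 in wild-type brains with a median of 2357.5. Its null signals were 2468, 2428, 1673, 1909 and 2040, and the difference was -0.05 (SE 0.19, adjusted p = 0.891 by limma), or -0.19 (SE 0.27) without the male null brains. Ppp6r3 (160779_at), a regulatory subunit of PP6, had wild-type signals of 314.7 to 424.3 with a median of 347.4. The null signals were 468.0 and 404.6 in males and 392.1, 441.9 and 414.8 in females, so null females too lay in the upper part of the range or above it. The difference was 0.26 (SE 0.12, adjusted p = 0.211 by limma), and 0.19 (SE 0.16) without the male null brains. Ppp4r2 (94970_at), a regulatory subunit of PP4, had -0.14 (SE 0.22), and 0.10 (SE 0.32) without the male null brains.

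**Figure D4:**
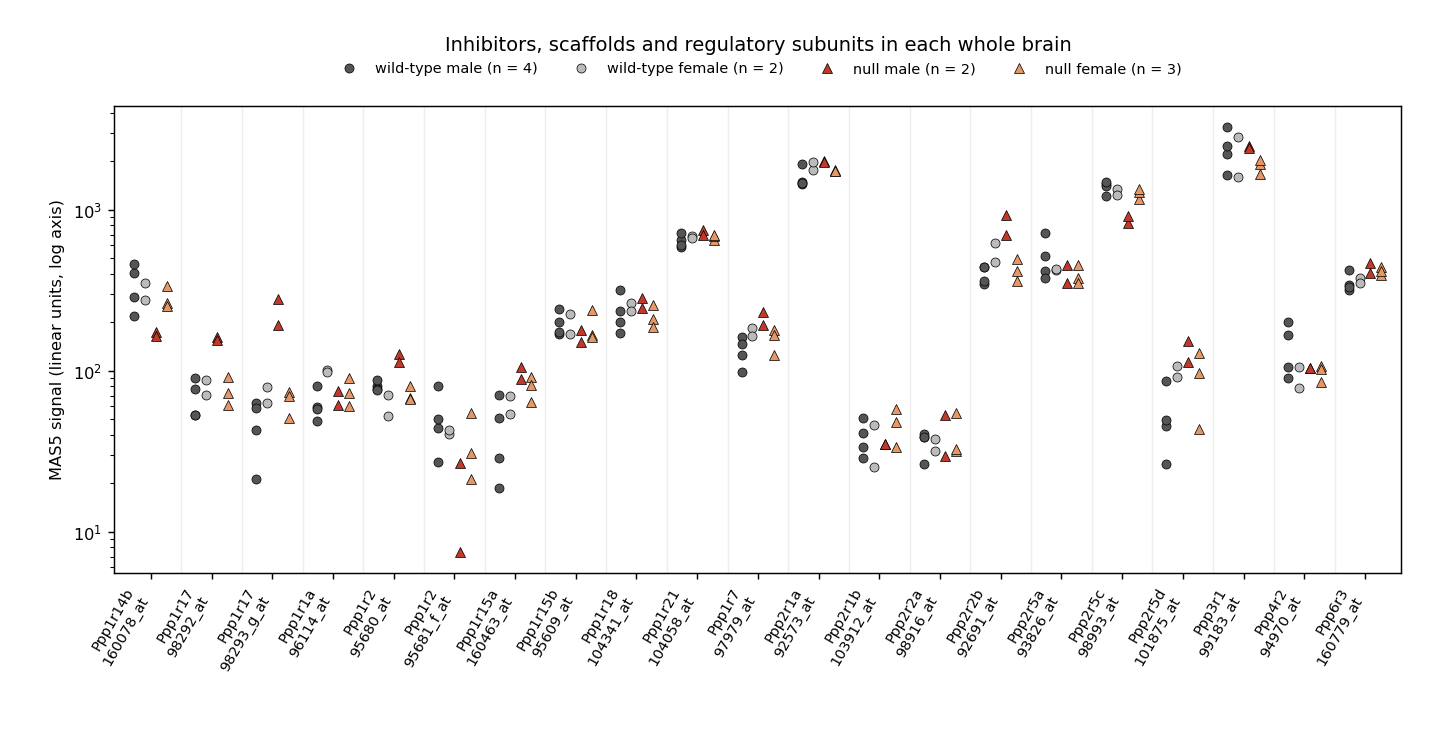
Signal on each array (y axis, linear MAS5 units on a log axis) for the tested probe sets of inhibitors, scaffolds and targeting or regulatory subunits, with circles for wild-type and triangles for null brains, split by sex. The male null brains lie above the other 9 for both Ppp1r17 probe sets, Ppp1r2 (95680_at), Ppp1r7, Ppp2r1a and Ppp2r2b, and below them for Ppp1r14b and Ppp2r5c.

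Whether the genotype difference depended on sex was asked with an interaction term, the difference in females minus that in males. It passed for 7 of 36 probe sets (limma, 19.4%), against 15.9% of all tested probe sets: 3 of 36 with a positive value (7.25% of all) and 4 with a negative one (8.68%). The split was 2 positive and 5 negative after quantile normalization and 5 and 3 after centring on the median. These 7 belonged to 5 genes. The values were -2.59 (SE 0.49, adjusted p = 0.00502) for Ppp6c through 160821_r_at and 0.78 (SE 0.23, adjusted p = 0.0336) through 103947_at. For Ppp1r17 they were -2.59 (SE 0.55, adjusted p = 0.00864) and -1.34 (SE 0.37, adjusted p = 0.0278). Ppp2r2b had -1.40 (SE 0.27, adjusted p = 0.00576), Ppp4c 0.95 (SE 0.29, adjusted p = 0.0415) and Ppp2r5c 0.64 (SE 0.18, adjusted p = 0.0292). The male side of every one of these values rests on the 2 male null brains, and Ppp6c 160821_r_at passed the signal filter only through the null brains. With the Gapdh ratio as a covariate none of the 7 passed (limma; 0 of all probe sets passed, and 1 of 36 members had an unadjusted p under 0.05). In that fit the values were -3.43 and 0.71 for the Ppp6c probe sets 160821_r_at and 103947_at, -0.13 and -0.67 for the Ppp1r17 probe sets 98293_g_at and 98292_at, -1.0 for Ppp2r2b, 1.28 for Ppp4c and 0.54 for Ppp2r5c, so 2 were larger than without the covariate and 5 smaller, and the lost calls do not show that the ratio removes the differences. The interaction count was 4 without null 4, 3 without null 5 and 13 without wild-type 2. The share of all probe sets in these fits is not given, so these counts do not set the members apart from the rest. Leaving out null 1 or null 2 left 1 male null brain. The value of Ppp6c 160821_r_at was then -2.80 or -2.38, and that of Ppp2r2b -1.60 or -1.19.

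Within males the same model called 17 of 36 probe sets, against 32.6% of all: 10 rose in null males (17.8% of all) and 7 fell (14.8%). The split was 8 and 8 after quantile normalization and 6 and 8 after centring on the median. The rises were Ppp5c (2.55, SE 0.61), Ppp1r17 (2.43, SE 0.38, and 1.26, SE 0.25), Ppp6c through 160821_r_at (2.41, SE 0.34), Ppp2r5d (1.47, SE 0.44), Ppp1r15a (1.37, SE 0.42), Ppp2r2b (1.02, SE 0.19), Ppm1g (1.0, SE 0.21), Ppp1r7 (0.69, SE 0.22) and Ppp1r2 through 95680_at (0.59, SE 0.20). The falls were Ppp1r2 through 95681_f_at (-1.72, SE 0.55), Ppp2ca (-1.0, SE 0.28), Ppp4c (-0.99, SE 0.20), Ppp1r14b (-0.96, SE 0.25), Ppp2cb (-0.84, SE 0.20), Ppp6c through 103947_at (-0.78, SE 0.16) and Ppp2r5c (-0.67, SE 0.12). Their limma adjusted p ran from 0.00022 to 0.0355. Ppp5c and Ppp6c through 160821_r_at passed the signal filter only through the null brains, and Ppp1r2 through 95681_f_at only through the wild-type brains. The counts and values are to be read with that selection. The count within males was 0 with the Gapdh ratio as a covariate. Without null 1 or null 2 only 1 male null brain is left, so no count is given there. In females 0 of 36 passed (limma, 0% of all), and 0 had an unadjusted p under 0.05 (4.13% of all), with a median of -0.07. These differences equal those given without the male null brains and differ only in the estimate of spread. They are thus not a separate result. Over all brains, the 2 male null signals lay above the other 9 for 10 of 36 probe sets (20.7% of all) and below them for 6 (16.5%), so the share below was close to the background.

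The difference between the sexes (female minus male, genotype as covariate) passed for 0 of 36 (limma, 0% of all). At an unadjusted p under 0.05 there were 3 (12.4% of all), with 1 higher in females (4.88% of all) and 2 lower (7.54%). Ppp1r2 (95680_at) had the smallest p: its log2 difference was -0.56 (SE 0.16, adjusted p = 0.261 by limma), with female signals of 70.4, 52.6, 67.9, 80.7 and 66.5 and male signals from 75.3 to 127.2. The sexes overlapped: 1 female, at 80.7, lay above 3 of the 6 males. In none of the 36 did the females all lie above or all below the males (0.201% of all each way). Ppp1r1a had 0.43 (SE 0.20, adjusted p = 0.395 by limma) and Ppm1g -0.43 (SE 0.20, adjusted p = 0.4 by limma). The other probe sets of the 8 smallest p were Ppp1cb (-0.20), Ppp6c through 103947_at (0.31), Ppp2r5c (0.21), Ppp3cb (-0.43) and Ppp4r2 (-0.34).

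Wild-type brains also differed among themselves. The animal numbers of 3 wild-type mice carry the letters LT and those of the other 3 the letters B4, with 2 males and 1 female in each set. The LT mice were all 6 weeks old and the B4 wild-type mice 7 to 9 weeks, so letters and age cannot be told apart; this comparison was added after the values were seen. In 11 of 36 probe sets all 3 LT brains lay above all 3 B4 brains, against 9.24% of all tested probe sets, and in 0 of 36 below them, against 9.16%. None of the 36 passed (limma with sex as a covariate, 6 arrays, 0.872% of all passed), and 10 had an unadjusted p under 0.05 with a higher LT signal (8.51% of all) and 0 with a lower one (5.85%). Without wild-type 3 and also without wild-type 5, 1 of 36 passed, Ppm1b through 101837_g_at (2.66). Each of these fits leaves 1 female, which the sex covariate takes up. Both therefore give the same difference between 2 LT and 2 B4 males and are not separate checks. Among all tested probe sets 95 passed without wild-type 3 and 80 without wild-type 5, against 65 with all 6 arrays. Calls thus rose over the whole array in these fits, and the single pass does not set Ppm1b apart.

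The members that separated these brains came from several phosphatases. Ppp2ca had 514.5, 320.0 and 396.0 with LT and 269.7, 220.9 and 214.9 with B4 numbers, a log2 difference of 0.78 (SE 0.17, adjusted p = 0.0733 by limma). Ppp3r1 had 3269, 2830 and 2499 against 2216, 1631 and 1600 (0.67, SE 0.15, adjusted p = 0.0775). Ppp3cb had 254.0, 199.9 and 275.3 against 173.8, 93.3 and 132.3 (0.90, SE 0.24, adjusted p = 0.117). The other calcineurin catalytic subunit, Ppp3cc, overlapped, with 89.3, 85.3 and 72.3 against 70.9, 73.6 and 82.6 (0.12, SE 0.21). Ppp1cc had 822.5, 812.5 and 888.6 against 619.8, 542.7 and 606.1 (0.51, SE 0.13, adjusted p = 0.108), and Ppp1r14b 402.1, 348.8 and 459.9 against 287.8, 219.2 and 273.0 (0.64, SE 0.17, adjusted p = 0.13). Ppm1b had 1282, 387.1 and 1058 against 367.2, 92.3 and 243.6 through 101837_g_at (2.0, SE 0.49, adjusted p = 0.0927) and separated the brains through 101838_r_at as well (2.22, SE 0.74). The other 4 were Ppm1a (0.47), Ppm1g (0.44), Ppp2r5a (0.42) and Ppm1m (0.40).

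**Figure D5:**
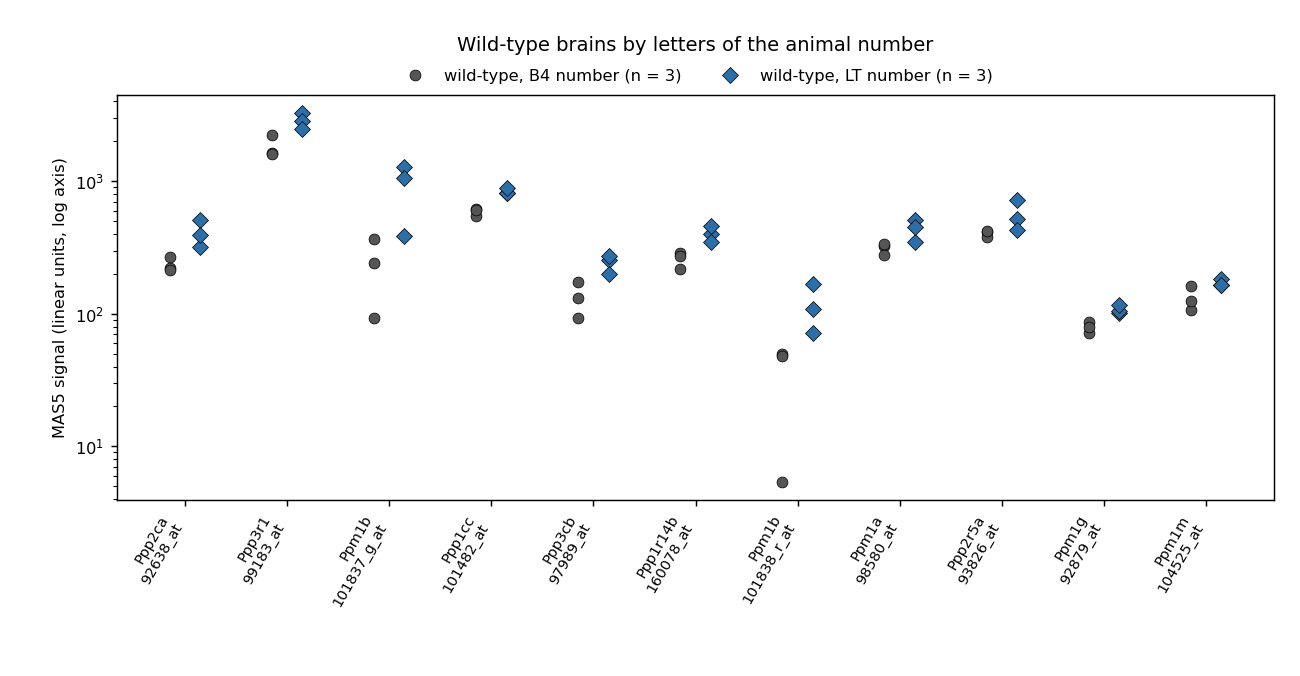
Signals of the 11 probe sets in which all 3 wild-type brains with LT numbers (diamonds) lay above all 3 with B4 numbers (circles), in MAS5 units on a log axis. For Ppp3r1 the LT brains lie between 2499 and 3269 and the B4 brains between 1600 and 2216.

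Some marker sums differed between the same brains. The neuronal markers summed to 10517 to 11758 with LT and 12762 to 13213 with B4 numbers, the microglial markers to 1981 to 2217 and 1809 to 1926, 7 endothelial markers to 1336 to 1416 and 893 to 1055, and 5 striatal markers to 3563 to 3746 and 3968 to 4391. Sums of astrocyte, oligodendrocyte, mural cell, choroid plexus, red blood cell and cerebellar markers overlapped between these brains. The part of these cell types in the values above was not tested. The null mice all carry B4 numbers, so the genotype difference was also taken within B4 animals: 0 of 36 passed (limma, 0.349% of all), and at an unadjusted p under 0.05 there were 9 higher (14% of all) and 3 lower (10.6%). The difference of Ppp3cb was 0.87 there, against 0.42 over all brains, and that of Ppp2ca -0.18 against -0.52. These B4 counts and values include the 2 male null brains, which had the highest Ppp3cb signals of the B4 animals, at 262.4 and 329.4.

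Other genes of these pathways were read from lists of kinases, modulators and partners, 1 probe set a gene. None passed for genotype in any list (limma, 0.0268% of all). Of 17 tested kinases that oppose these phosphatases, 3 had an unadjusted p under 0.05 with a higher and 2 with a lower signal in null brains (median 0.0078), beside 13.4% and 9.69% of all tested probe sets, which are the background for each list here. The 2 with the smallest p were the casein kinase Csnk1d, at 0.60 (SE 0.15, adjusted p = 0.0852 by limma; 0.22 without the male null brains), and the glycogen synthase kinase Gsk3a, at -0.35 (SE 0.12; -0.05). Of 10 modulators of PP2A and PP4, 2 were higher and 1 lower at that p (median -0.09). Set, an inhibitor of PP2A, had -0.69 (SE 0.17, adjusted p = 0.0852 by limma; -0.41 without the male null brains) and Igbp1, which binds free catalytic subunits, 0.49 (SE 0.17; 0.21). Of 8 calcineurin partners 0 were so in either direction (median 0.0032), with Rcan3, a calcineurin inhibitor, at -0.18 (SE 0.11; -0.20 without the male null brains) and the anchoring protein Akap1 at 0.37 (SE 0.28; 0.08). Of 6 partners or substrates of PP1, 2 were higher and 0 lower (median 0.21), with the glutamate receptor subunit Gria1 at 0.93 (SE 0.25, adjusted p = 0.0941 by limma; 0.62 without the male null brains) and Sh3glb1 at 0.49 (SE 0.19; 0.55). For the interaction, 3 genes of the kinase list passed with a positive and 3 with a negative value, the latter including the regulatory subunit Prkar1b. So did 2 modulators with a positive and 1 with a negative value, and 1 partner of PP1 with a negative value, beside 15.9% of all probe sets.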

How the data were processed

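Whole brain RNA of 11 mice was measured on 1 array each. The authors deposited 1 linear intensity per probe set and array. The submitters' processing notes name MAS5; the version, background settings and detection calls are not given in the sources used here. The trimmed mean was 150.1 on every array, so no further scaling was applied. Of 12488 probe sets, 66 controls were left out. Intensities under the 10th percentile (3.1) were raised to it before log2, and probe sets under the 40th percentile of mean log2 signal (4.69) were not tested, which left 7453. Values near that floor have compressed folds. limma 3.58.1 in R 4.3.3 (lmFit, eBayes with trend, Benjamini-Hochberg over all 7453) gave the differences: null minus wild-type (sex as covariate), female minus male (genotype as covariate) and their interaction. Scripts were tested on simulated data. The number of arrays limits precision, and no depth applies.

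Members were taken by the annotation's symbol, and all 34 genes matched the gene table of GRCm38.p6. The members, role, pathway and marker lists were chosen with earlier results of these data known. Catalytic subunits, non-overlapping members and those with the smallest p (12 for genotype, 8 for sex and for the interaction) were named by rule, and other members named were chosen after their values were seen. Alternatives covered scaling, floor, filter, covariates, variance trend, B4 animals and leaving out brains. The 1 calcineurin gene left out by the rule is not reported here.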

Additional observations from a re-analysis of the deposited data

Results flagged for a closer look

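The interaction of genotype and sex passed limma's test for 7 of 36 probe sets (19.4%), from 5 genes, a share near the 15.9% of all tested probe sets, and its male side rests on the 2 null male arrays that stand apart. The differences in females minus those in males were -2.59 for Ppp6c through 160821_r_at and 0.78 through 103947_at, -2.59 and -1.34 for Ppp1r17 through 98293_g_at and 98292_at, -1.40 for Ppp2r2b, 0.95 for Ppp4c and 0.64 for Ppp2r5c. They were picked out because the test of the difference itself passed, and the Gapdh 3′ to 5′ ratio of 0.859 and 0.798 in the male null brains moved with them. With that ratio as a covariate none passed, while the values ranged from a larger one for Ppp6c 160821_r_at (-3.43) to one near 0 for Ppp1r17 98293_g_at (-0.13). Ppp6c 160821_r_at passed the signal filter only through the null brains.

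Among the 72 sets of wild-type or null signals of the 36 tested probe sets, 2 held a brain far from its group by Dixon's test, which by chance picks out about 5% of groups. For Ppm1b (101838_r_at) wild-type 2 had 5.4 and the next wild-type brain 48.0, a gap of 0.634 of the group's log2 range. For Ppp4r2 null 4 had 85.5 and the next null brain 101.7, a gap of 0.80 of the range.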

How the results depend on the processing

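No member passed for genotype under any alternative over all samples, and with 1 brain left out the count ran from 0 to 4. It was 4 without wild-type 5 (Ppm1g, Ppp5c, Ppp6c through 103947_at and Ppp2r5c), where 11.8% of all probe sets passed. Without wild-type 3 it was 1 (Ppp4c), where 2.62% of all passed. The count with an unadjusted genotype p under 0.05 was 14 in the report (23.1% of all). It was 9 of 25 with the filter at the 60th percentile (25.7% of all) and 2 with age (11.4%). With the number letters as a block it was 8 (18.7%), with the Gapdh ratio 1 (4.66%) and without the male null brains 0 (3.54%). With 1 brain left out it ran from 2 to 15, at 2 without null 1 (10.6%) and 3 without null 2 (11.2%). The count for the interaction, 7, was 11 with the letters as a block, 0 with the Gapdh ratio and 4 without the variance trend. With 1 brain left out and at least 2 in each genotype and sex group, it ran from 3 to 13. Within males the count, 17, was 11 with the filter at the 60th percentile, 9 with age and 0 with the Gapdh ratio. The interaction and within-male counts are given without the share of all probe sets in each fit, so they do not set the members apart. For the LT and B4 wild-type brains the count was 0 to 1, in fits where between 1 and 95 of all tested probe sets passed. No member passed for sex under any alternative run, nor without the male null brains with a further brain left out.

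With the Gapdh ratio as a covariate these genotype differences changed sign: Ppp1r14b (0.0704), Ppp1r15a (-0.0731), Ppp1r17 98293_g_at (-0.77), Ppp1r2 95681_f_at (0.0093), Ppp2cb (0.0117), Ppp2r5c (0.0437), Ppp6c 103947_at (0.0877) and 160821_r_at (-0.30). Without the male null brains, which leaves 3 null against 2 wild-type females, 14 of 36 genotype differences changed sign. Among them were Ppp1r17 98293_g_at (-0.15), Ppp6c 103947_at (0.0029) and 160821_r_at (-0.18). So did the sex differences of Ppp2r5c (-0.0925) and Ppp6c 103947_at (-0.0562). The cause was not tested. No paired analysis was possible because the animal numbers do not pair mice across genotypes. Centring each array on its median took the median genotype difference of all tested probe sets from 0.03 to -0.15 and that of the 36 from 0.07 to -0.11, so the sign of the latter depends on the scaling.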
